A study of Homo sapiens with 33 samples.

Results

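The replication-dependent histone genes are the members described here. They were taken from the gene FPKM table of the RIP-seq input RNA of K562 cells as every entry whose symbol matches HIST1H, HIST2H, HIST3H or HIST4H in the GENCODE 26 naming. The rule found 91 entries under 90 symbols among the 58293 entries of the table, since HIST1H3D is listed under 2 gene IDs. By their names 15 of the entries are pseudogenes (a symbol ending in P or PS with a digit), and these were kept apart, which left 76 members. K562 is a human erythroleukemia cell line. The cells of all libraries used here were wild type and the labels name no treatment for them. The series asked which RNAs are bound by EZH2, the catalytic subunit of the Polycomb repressive complex PRC2, and how one of them acts on the β-globin cluster. The input RNA library and 4 fractionated RNA-seq libraries (cytoplasmic, nuclear, nuclear polyA+ and nuclear polyA−) are 1 library each, so no replicate error and no test between samples can be given. The bounds after each FPKM are the confidence bounds of the deposited table, whose level is not stated there, and they cover the estimate within this library only.

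Replication-dependent histone genes supply the core histones H2A, H2B, H3 and H4 and the linker histone H1 while DNA is copied. They lie in clusters, mostly without introns, and their mRNAs end in a conserved stem-loop in place of a polyA tail. The stem-loop is bound by SLBP, and the U7 snRNP guides the cut behind it. Transcription of the genes runs in nuclear bodies that hold the coactivator NPAT. An RNA preparation that keeps only polyA+ RNA loses most of these mRNAs. The label calls the input total RNA. Fixed cells, sonicated nuclei and removal of rRNA are described for the immunoprecipitated RNA, and how the input itself was prepared is not given in the sources used here.

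The stem-loop was searched to check that the members carry the feature the group is known for. A window of 200 bases after each stop codon was read on the transcribed strand of GRCh38. The search asked for 16 bases with a stem of 6 pairs that opens with G bases and closes with C bases, and for a loop of 4 free bases. Of the 71 members with a coding sequence in GENCODE 44, 70 held it (98.6%), beginning 22 to 67 bases after the stop codon (median 35). The same search found it behind 54 of 19974 other coding genes (0.27%), among them H2AX, which the table lists as H2AFX. The exception was the HIST1H3D entry with the gene ID ENSG00000282988.1, a longer model that also covers HIST1H2AD and overlaps HIST1H1PS1. The 70 stem-loops took 10 forms, which are shown because H4 members used forms of their own. Each line gives 26 bases of 1 gene in the order in which they are transcribed, with the stem-loop in capitals.
HIST1H1C: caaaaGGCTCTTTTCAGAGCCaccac
HIST1H2BJ: ctaacGGCTCTTTTAAGAGCCaccca
HIST2H2AC: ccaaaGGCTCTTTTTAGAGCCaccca
HIST1H2AG: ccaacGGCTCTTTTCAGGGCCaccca
HIST1H2AK: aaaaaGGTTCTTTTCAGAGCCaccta
HIST1H3E: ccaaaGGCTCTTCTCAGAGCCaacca
HIST1H2BI: ccaaaGGCTCTTCTAAGAGCCaccca
HIST1H4C: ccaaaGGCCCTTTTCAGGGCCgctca
HIST1H4I: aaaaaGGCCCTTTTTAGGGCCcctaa
HIST1H4L: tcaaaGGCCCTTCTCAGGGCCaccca

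The form shown for HIST1H1C, at chr6:26055744-26055759 on the minus strand, stood behind 40 members: 4 of H1, 13 of H2A, 12 of H2B and 11 of H3. The form of HIST1H2BJ stood behind 10 members, of which 5 were H2B. The 15 H4 members used only the 3 forms printed last, all of which carry T4C and A13G, where the letter of the most frequent form comes first and positions count from 1 at the first capital. These changes pair with each other in the stem. The form of HIST1H4C, at chr6:26104317-26104332 on the plus strand, stood behind 10 of them and that of HIST1H4I behind 4. None of the other 55 stem-loops had an H4 form, although HIST1H2AG carried A13G alone. FPKM overlapped between the forms: the 40 members with the most frequent form ran from 0 to 389.9 FPKM with a median of 23.1, and the 10 with the form of HIST1H4C from 0 to 53.1 with a median of 18.9. The 3 forms with T8C in the loop stood behind HIST1H4L and HIST1H2BI, both listed at 0, and HIST1H3E at 0.727 (0.357 to 1.1) FPKM. Of the 71 spans in the table, 32 hold the coding sequence alone, and for 37 of the 70 members the stem-loop lay outside the span, while for 33 it lay inside. The median was 21.96 FPKM in the first set and 23.3 in the second.

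An FPKM of 1 or more was listed for 50 of the 76 members (65.8%) and for 21.8% of the whole table. At 10 FPKM the count was 40 against 7.37% of all entries, and at 100 FPKM it was 11 against 0.463%. The lower bound was above 0 for 52 members (68.4%), against 26.5% of all entries. Listed at exactly 0 were 18 members, while 41.8% of all entries were at 0. The median of the 76 members was 14.1 FPKM and that of all entries 0.068. An entry at 0 need not be a silent gene, although only 3 of 82 entries with ribosomal protein symbols were at 0. Most entries of the table are not protein-coding genes, so the shares of all entries are a wide background. All 8 erythroid markers were measured, from 14.3 FPKM for TAL1 to 218 for HBG2, and the 6 markers of T cells, B cells, fibroblasts, hepatocytes and pancreatic beta cells stood at 0.677 FPKM or below.

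**Figure D1:**
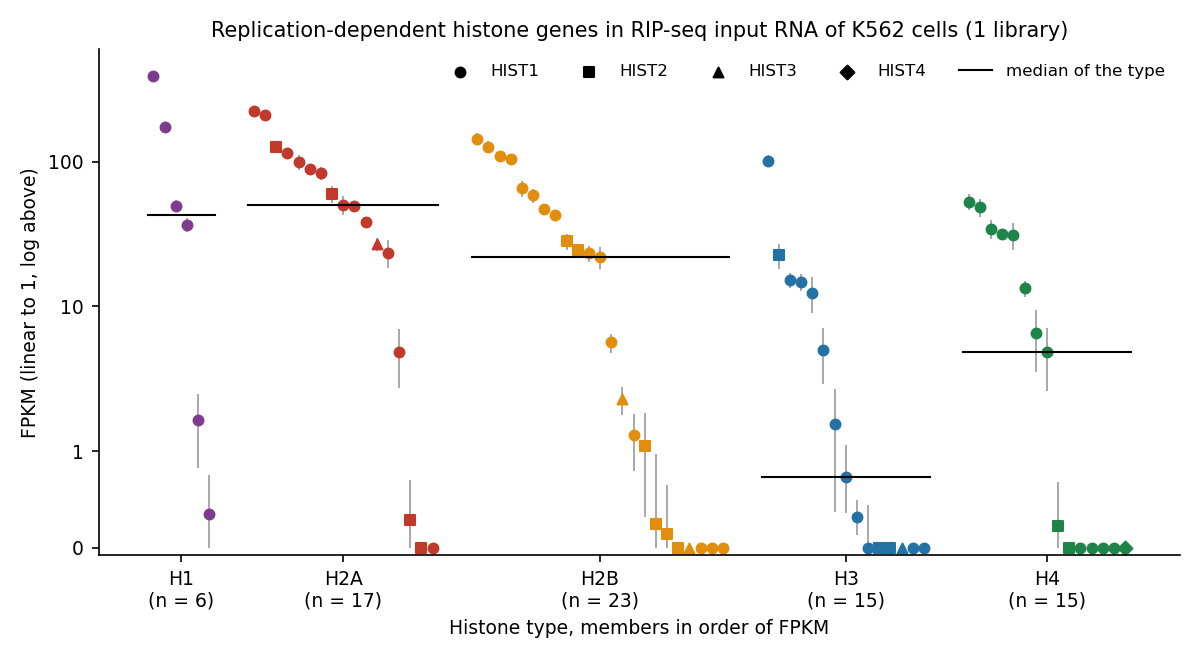
FPKM of each of the 76 members in the RIP-seq input RNA (1 library), grouped by histone type and ordered by FPKM, with the confidence bounds of the table as grey bars and the type's median as a black line. The axis is linear up to 1 and logarithmic above. H1, H2A and H2B reach above 100 FPKM with several members each, H3 with HIST1H3B alone, and no H4 member does.

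How far the copies can be told apart was measured on the reference. Pieces of 150 bases, the length of a read, were cut every 10 bases from the GENCODE 44 transcript of each member and mapped back to GRCh38 with minimap2, and a piece counted as distinct when it returned with a mapping quality of at least 20, the minimum that the authors applied. All pieces were distinct for 57 of the 76 members and at least 80% for 63. No piece was distinct for 6 members, namely the pairs HIST2H2AA3 and HIST2H2AA4, HIST2H3A and HIST2H3C, and HIST2H4A and HIST2H4B. These 6 had at most 0.291 FPKM, and 4 of them were listed at 0. Reads that fit 2 copies equally well fall under this minimum, so a value at or near 0 does not show that the genes are silent. Of the 13 members under 80%, 4 were at 1 FPKM or above, against 46 of the 63 others. The median was 0 FPKM in the first set and 23.6 in the second. The authors' aligner was not rerun, and the alternate contigs of the genome were left out of the mapping.

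The linker histones had the highest single member. HIST1H1C, a somatic H1 gene at chr6:26055787-26056428, minus strand (GRCh38), stood at 389.9 (376 to 403) FPKM, which is rank 32 among all entries. HIST1H1E followed at 175 (167 to 183) FPKM, and the bounds of these genes do not overlap. The other somatic H1 genes were lower: HIST1H1B had 49.7 (44.98 to 54.4) FPKM and HIST1H1D 36.6 (32.5 to 40.7). HIST1H1A had 0.351 (0 to 0.757) FPKM, with a lower bound at 0. HIST1H1T, the H1 gene known from spermatocytes, had 1.65 (0.823 to 2.47) FPKM. Of the 6 H1 genes 5 were at 1 FPKM or above, with a median of 43.2. HIST1H1C alone gave 12.7% of the summed FPKM of all 76 members.

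H2A had the highest median of the types, 50.4 FPKM over 17 members, with 14 of them at 1 FPKM or above. HIST1H2AM had 223 (206 to 241) FPKM and HIST1H2AH 209.6 (195 to 224), and their bounds overlap. HIST2H2AC followed at 127 (116 to 139), HIST1H2AE at 115 (106 to 124) and HIST1H2AD at 99.6 (88.4 to 111) FPKM. These genes encode nearly the same H2A protein from different places of the genome. HIST1H2AA, which is known from testis, stood at 4.87 (2.74 to 6.99) FPKM. Listed at 0 were HIST1H2AJ and HIST2H2AA4, and HIST2H2AA3 had 0.291 (0 to 0.702) FPKM. Only 50% of the pieces of HIST1H2AI, which had 89.2 (81.5 to 96.9) FPKM, and 47.1% of those of HIST1H2AJ mapped back to 1 place, so the estimates of these neighbours are uncertain.

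Of the 23 H2B members 16 were at 1 FPKM or above, with a median of 21.96. The highest was HIST1H2BJ at 144 (131 to 157) FPKM. HIST1H2BK at 127 (116 to 138), HIST1H2BC at 109 (100.4 to 118) and HIST1H2BD at 105 (95.9 to 114) FPKM came next, and each overlaps its neighbour in the order within the bounds. HIST1H2BO followed at 65.7 (57.6 to 73.8) FPKM. HIST1H2BA, the H2B gene known from testis, had 21.96 (18.2 to 25.7) FPKM, and as the middle of the 23 members it is itself the median. Listed at 0 were HIST1H2BB, HIST1H2BI and HIST1H2BM, whose sequences are distinct from all other copies at the length of a read. The table also lists 5 H2B members at 1.08 FPKM or below that GENCODE 44 calls pseudogenes although their symbols do not say so, namely HIST2H2BA, HIST2H2BB, HIST2H2BC, HIST2H2BD and HIST3H2BA. Without them the H2B median was 26.4 FPKM.

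H3 and H4 stood lower. HIST1H3B was the only H3 member above 100 FPKM, at 102 (92.3 to 111). The next were HIST2H3D at 22.8 (18.3 to 27.2) and HIST1H3H at 15.2 (13.4 to 17.03) FPKM. HIST1H3D followed under its longer ID at 14.8 (12.7 to 16.8) FPKM, whereas the short ID of the same symbol was at 0.00047 with an upper bound of 0.438. In GENCODE 44 the longer model starts at chr6:26199293, as HIST1H2AD does, and has 510 coding bases against 411 for the short ID. It is counted with H3, also in the H3 sum, by its symbol alone. HIST1H3J followed at 12.5 (9 to 15.96) FPKM. Its span overlaps that of HIST1H2AM, and the longer HIST1H3D span covers HIST1H2AD. Whether reads of these H2A genes entered the H3 values was not tested. Of the 15 H3 members 7 were at 1 FPKM or above, 5 were listed at 0, and the median was 0.727. This median rests on where the zeros fall: it was 8.76 FPKM over the H3 members above 0.

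Of the 15 H4 members, nearly all of which encode the same protein, 8 were at 1 FPKM or above and 6 were listed at 0. HIST1H4C had 53.1 (46.5 to 59.7) FPKM and HIST1H4H 48.6 (41.8 to 55.4). HIST1H4B at 34.5 (29.2 to 39.8), HIST1H4E at 31.8 (29.4 to 34.2) and HIST1H4D at 31.3 (24.6 to 37.9) FPKM were close to each other, with overlapping bounds. The H4 median was 4.84 FPKM over all members and 31.3 over those above 0. Over the H4 members at least 80% distinct it was 13.4. The median over all members is the value of HIST1H4J (bounds 2.61 to 7.06), of whose pieces 12% were distinct. HIST1H4K, also 12% distinct, was listed at 0, and HIST2H4A and HIST2H4B had no distinct piece. The estimates of these H4 copies are therefore uncertain.

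Summed over members, the FPKM came to 653 for H1, 1202 for H2A, 809 for H2B, 175 for H3 and 224 for H4. H2A and H2B together had 5.04 times the sum of H3 and H4. The ratio was 3.97 when the lower bounds of the first were set against the upper bounds of the second, and 6.49 the other way round. It was 5.18 over the members whose sequence is at least 80% distinct. Leaving out copies does not bring back reads lost to the mapping quality minimum, so neither ratio accounts for them. Members without a distinct piece are HIST2H2AA3 and HIST2H2AA4 among H2A, and HIST2H3A, HIST2H3C, HIST2H4A and HIST2H4B among H3 and H4. H4 stood at 1.28 times H3, and this ratio ran from 0.946 to 1.73 when bounds were set against each other in the same way. Bounds added up like this give the widest case and no interval of the ratio, and the order of H3 and H4 was not tested. FPKM is a level per length, and the core histones enter the nucleosome in equal numbers, but neither protein nor mRNA stability was measured here. Many of the spans are 297 to 393 bp long. The RIP-seq and fraction libraries were selected at 250 to 500 bp, and whether the input library was selected alike is not given. For such short models the estimate depends on the length correction of the authors' tool, which was not tested.

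The sum was carried by few genes. The 5 highest members gave 37.3% of it, the 10 highest 56.3% and the 20 highest 79.6%. Among the 11 highest members only the steps from HIST1H1C to HIST1H2AM, from HIST1H2AH to HIST1H1E and from HIST1H1E to HIST1H2BJ were larger than the bounds. From HIST1H2BJ to HIST1H2AB every neighbour in the order overlapped the next.

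By cluster, HIST1 on chromosome 6 held 56 members and 90.4% of the summed FPKM. Its median was 23.5 FPKM, with 42 members at 1 FPKM or above and 10 listed at 0. HIST2 on chromosome 1 held 15 members with a median of 0.246 FPKM, 6 of them at 1 FPKM or above. HIST3, also on chromosome 1, held 4 members with a median of 1.14 FPKM, and HIST4 on chromosome 12 is the single gene HIST4H4, which was listed at 0. The 6 HIST2 members that are at least 80% distinct had a median of 26.4 FPKM and none was at 0, whereas the 9 others had a median of 0 and 5 were at 0. Of the 6, 4 were at 1 FPKM or above. The rest are the annotated pseudogenes HIST2H2BA at 0.246 (0 to 0.974) and HIST2H2BB at 0.14 (0 to 0.647) FPKM. The 9 others include the annotated pseudogenes HIST2H2BC and HIST2H2BD. The HIST1 members that are at least 80% distinct had a median of 27.4 FPKM. The HIST2 value near it is the midpoint between HIST2H2BE at 24.7 and HIST2H2BF at 28.2 FPKM.

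In HIST2 the divergent neighbours HIST2H2AC, at chr1:149886975-149887364, plus strand, and HIST2H2BE had 127 (116 to 139) and 24.7 (23.00 to 26.4) FPKM. HIST2H2AB stood at 60.02 (52.04 to 68.01) and HIST2H2BF at 28.2 (24.7 to 31.6) FPKM. HIST2H3D had 22.8 (18.3 to 27.2) FPKM, with 66.7% of its pieces distinct singly and 100% as read pairs of 2 times 150 bases. These 5 genes were the members of HIST2 above 10 FPKM. HIST2H2BC had 1.08 (0.316 to 1.84), HIST2H2BA 0.246 (0 to 0.974) and HIST2H2BB 0.14 (0 to 0.647) FPKM. The duplicated stretch of the cluster was low: HIST2H4A had 0.223 (0 to 0.681) FPKM, HIST2H2AA3 had 0.291 (0 to 0.702), and HIST2H4B, HIST2H3A, HIST2H3C and HIST2H2AA4 were listed at 0. HIST2H2BD was also listed at 0. In HIST3, HIST3H2A had 27.03 (24.1 to 29.97) and HIST3H2BB 2.28 (1.78 to 2.77) FPKM, and HIST3H2BA and the testis gene HIST3H3 were listed at 0.

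Of the 18 members listed at 0, 11 were nonetheless at least 80% distinct. These comprised HIST1H2BB, HIST1H2BI, HIST1H2BM, HIST1H3C, HIST1H3I, HIST1H4F, HIST1H4G and HIST1H4L, whose spans hold the coding sequence alone, HIST3H3 and HIST4H4 with longer spans, and the pseudogene HIST3H2BA. Of the 32 coding-only spans 10 were listed at 0, against 6 of the 39 longer spans. Among members at least 80% distinct the counts were 8 of 29 and 2 of 31. At 1 FPKM or above were 20 of the 32, with a median of 14.7, and 29 of the 39, with a median of 21.96. HIST1H1C, HIST1H2AM and HIST1H2AH are among the coding-only spans. The part of the span in the values at 0 was not tested.

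**Figure D2:**
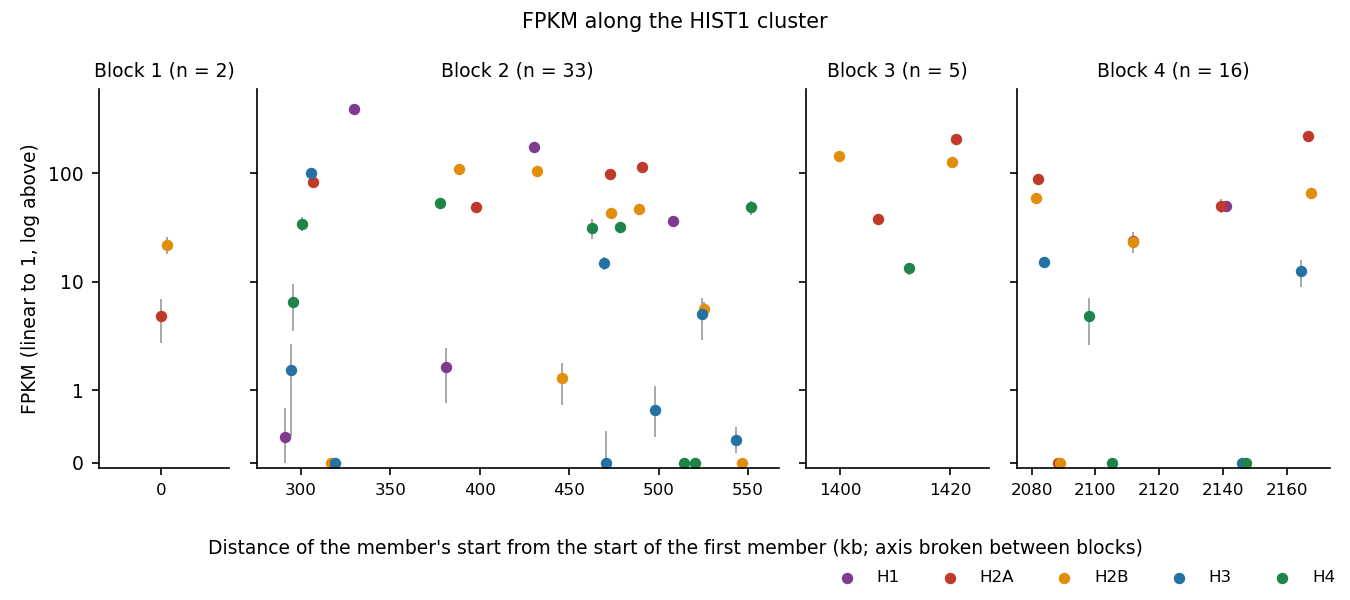
FPKM of the 56 HIST1 members against the distance of each start from that of the first member, in kb, with the axis broken between blocks of members at most 100 kb apart; colours give the histone type and grey bars the bounds. High members and members at 0 stand side by side in blocks 2 and 4, while the 5 members of block 3 all lie between 13.4 and 209.6 FPKM.

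Along HIST1 the members fell into 4 blocks when gaps of over 100 kb were taken as borders. The first, at chr6:25726132-25727292, holds the testis genes HIST1H2AA and HIST1H2BA alone. The second, at chr6:26017085-26285638, holds 33 members of all types and gave 57.5% of the HIST1 sum, with 24 members at 1 FPKM or above and 5 listed at 0. The third, at chr6:27125897-27147515, is the short stretch of HIST1H2BJ, HIST1H2AG, HIST1H2BK, HIST1H4I and HIST1H2AH. All 5 were at 1 FPKM or above, with a median of 127 FPKM. The fourth, at chr6:27807444-27893843, holds 16 members, 11 of them at 1 FPKM or above and 5 listed at 0. Within 20 kb of HIST1H3B, at 102 FPKM, lie HIST1H2BB and HIST1H3C, both listed at 0.

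Between the first and last member of each cluster the table lists 288 entries that are no members, of which 60 (20.8%) were at 1 FPKM or above, with a median of 0.0655 FPKM. These values are close to the 21.8% and the median of 0.068 of the whole table. The highest were entries of the spliceosomal U1 snRNA, at 280 (238 to 323) and 111 (83.9 to 137) FPKM. On log2(FPKM + 1) the median of the members stood 3.82 above that of these entries. HIST2 as named spans the centromere of chromosome 1, which brought in 227 of the 288. Inside blocks of members at most 100 kb apart only 12 other entries lay, 3 of them at 1 FPKM or above, and the difference was 3.53. The highest of the 12 was RP11-196G18.22 in HIST2 at 5.14 (4.57 to 5.72) FPKM. HFE, the iron regulator that lies among the HIST1 genes, had 1.09 (0.466 to 1.72) FPKM.

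Promoter windows of RefSeq, from 250 bases before to 50 after the start, were found for 67 of the 91 entries. Of these, 64 are separate windows of members that are not pseudogenes by name. The window at chr6:26199244-26199543 is shared by both HIST1H3D entries and HIST1H2AD. It was counted once, as an H3 window with the 14.8 FPKM of the longer HIST1H3D entry, so the 99.6 FPKM of HIST1H2AD was left out. The letters TATAAA stood on the gene's own strand in 38 of these 64 (59.4%), against 7.58% of 27239 other promoters. In 32 of the 38 the first match began 25 to 35 bases before the start. CCAAT stood on the own strand in 54 (84.4%), against 20.6% of the others. On either strand the shares were 67.2% against 11.8% for TATAAA and 84.4% against 35.6% for CCAAT. The motifs shared no base in any of the 64 windows. CCAAT was present in all 51 windows of H1, H2A, H2B and H3 genes and in 3 of 13 windows of H4 genes. Members with TATAAA had a median of 22.4 FPKM and those without 19.1, and of the 15 members listed at 0 that have a window, 10 held TATAAA. These matches describe the windows and do not show that a factor binds there.

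The promoters of 2 pairs of related genes with unlike FPKM are shown as the 250 bases before the start, with the motifs of either strand in capitals. HIST1H3B (chr6:26032100-26032349, minus strand) and HIST1H3C (chr6:26045134-26045383, plus strand) stood at 102 and 0 FPKM, and HIST1H2AI (chr6:27807923-27808172, plus strand) and HIST1H2AJ (chr6:27814778-27815027, minus strand) at 89.2 and 0 FPKM.
HIST1H3B: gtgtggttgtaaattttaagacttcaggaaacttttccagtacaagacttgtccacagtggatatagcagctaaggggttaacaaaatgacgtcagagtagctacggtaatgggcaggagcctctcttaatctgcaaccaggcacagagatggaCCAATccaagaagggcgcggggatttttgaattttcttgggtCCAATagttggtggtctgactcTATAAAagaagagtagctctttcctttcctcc
HIST1H3C: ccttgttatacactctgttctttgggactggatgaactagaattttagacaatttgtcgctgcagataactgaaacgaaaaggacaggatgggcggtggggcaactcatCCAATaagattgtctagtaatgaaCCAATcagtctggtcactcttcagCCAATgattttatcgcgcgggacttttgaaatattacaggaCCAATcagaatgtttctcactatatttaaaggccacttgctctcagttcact
HIST1H2AI: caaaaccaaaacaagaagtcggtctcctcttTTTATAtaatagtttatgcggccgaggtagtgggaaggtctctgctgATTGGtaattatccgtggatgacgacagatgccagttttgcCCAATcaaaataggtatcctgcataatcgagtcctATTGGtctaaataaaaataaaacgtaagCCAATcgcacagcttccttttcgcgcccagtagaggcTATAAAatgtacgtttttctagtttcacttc
HIST1H2AJ: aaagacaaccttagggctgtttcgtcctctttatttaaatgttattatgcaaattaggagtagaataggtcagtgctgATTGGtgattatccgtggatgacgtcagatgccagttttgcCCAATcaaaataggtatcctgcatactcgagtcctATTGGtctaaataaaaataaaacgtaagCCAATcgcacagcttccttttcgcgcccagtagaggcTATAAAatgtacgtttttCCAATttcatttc

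The window of HIST1H3B held 1 TATAAA and 2 CCAAT, and that of HIST1H3C held no TATAAA and 4 CCAAT. The windows of HIST1H2AI and HIST1H2AJ both held TATAAA 31 bases before the start, although their FPKM differed. As given above, these H2A copies were 50% and 47.1% distinct over the transcript. Over the coding sequence alone, which is all that the span of HIST1H2AJ holds, both were 28% distinct. Reads that fit both copies fall under the mapping quality minimum, so the difference in FPKM is uncertain.

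**Figure D3:**
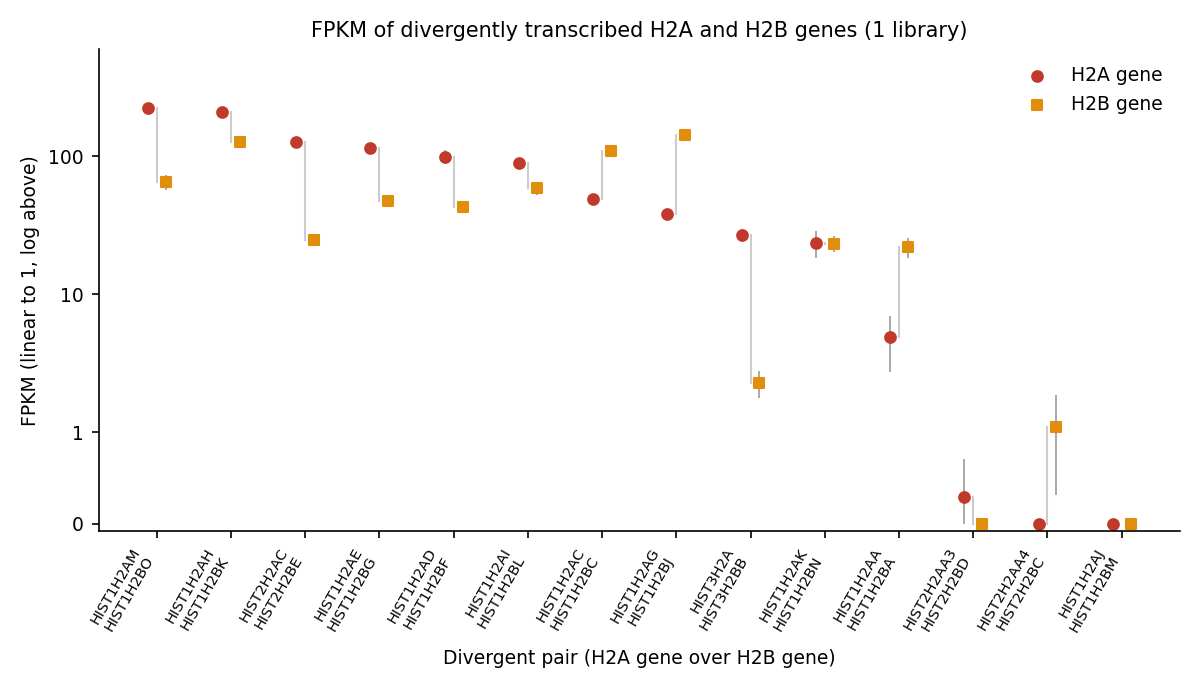
FPKM of the 14 divergent pairs of an H2A gene (circles) and an H2B gene (squares), ordered by the H2A gene, with the bounds as grey bars, on an axis that is linear up to 1 and logarithmic above. The 8 highest H2A genes face H2B genes at 24.7 FPKM or above, and in 7 pairs the H2A gene lies above its partner beyond the bounds.

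Many H2A and H2B genes share a promoter region and are transcribed away from each other. With starts at most 1000 bases apart on opposite strands, 14 such pairs were found, and their starts lay 194 to 291 bases apart with a median of 242. In 11 pairs both genes were at 1 FPKM or above, in 1 pair a single gene was, and in 2 neither. Across the 14 pairs Spearman's rho between the H2A and the H2B value was 0.739, given as a description over genes of 1 library that share regions and, at HIST2, near-identical sequence. It was 0.482 over the 11 pairs with both genes at 1 FPKM or above, and 0.527 over the 10 pairs with both genes at least 80% distinct. In the 3 pairs without both genes at 1 FPKM or above the H2A copies are 0 to 47.1% distinct, and the H2B partners of 2 of them, HIST2H2BC and HIST2H2BD, are annotated pseudogenes. Levels within a pair were not equal. The H2A gene was higher beyond the bounds in 7 of the 11 pairs and the H2B gene in 3. HIST3H2A stood 11.9 times above HIST3H2BB, and HIST2H2AC 5.16 times above HIST2H2BE. HIST1H2AM was 3.4 times above HIST1H2BO. In the other direction HIST1H2AA had 0.222 times the value of HIST1H2BA, HIST1H2AG 0.266 times that of HIST1H2BJ and HIST1H2AC 0.454 times that of HIST1H2BC. HIST1H2AK at 23.6 (18.4 to 28.8) and HIST1H2BN at 23.3 (20.4 to 26.3) FPKM overlapped, but the span of HIST1H2BN covers HIST1H2AK and HIST1H2AL. In all, 18 of the 76 spans overlap another entry of the table.

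Of the 15 pseudogenes 9 were listed at 0, where 41.8% of all entries were, and 2 (13.3%) were at 1 FPKM or above, against 21.8% of all entries. HIST1H1PS1 had 3.84 (2.24 to 5.44) FPKM, and its span overlaps the longer HIST1H3D entry. HIST1H4PS1 had 2.34 (0.247 to 4.44) and HIST1H2APS6 0.529 (0 to 1.28) FPKM, the latter with a lower bound at 0. HIST2H3PS2, named a pseudogene but annotated as a coding H3 gene in GENCODE 44, was listed at 0, and it has the stem-loop as well. Its pieces were 75.8% distinct singly and 100% as read pairs of 2 times 150 bases.

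**Figure D4:**
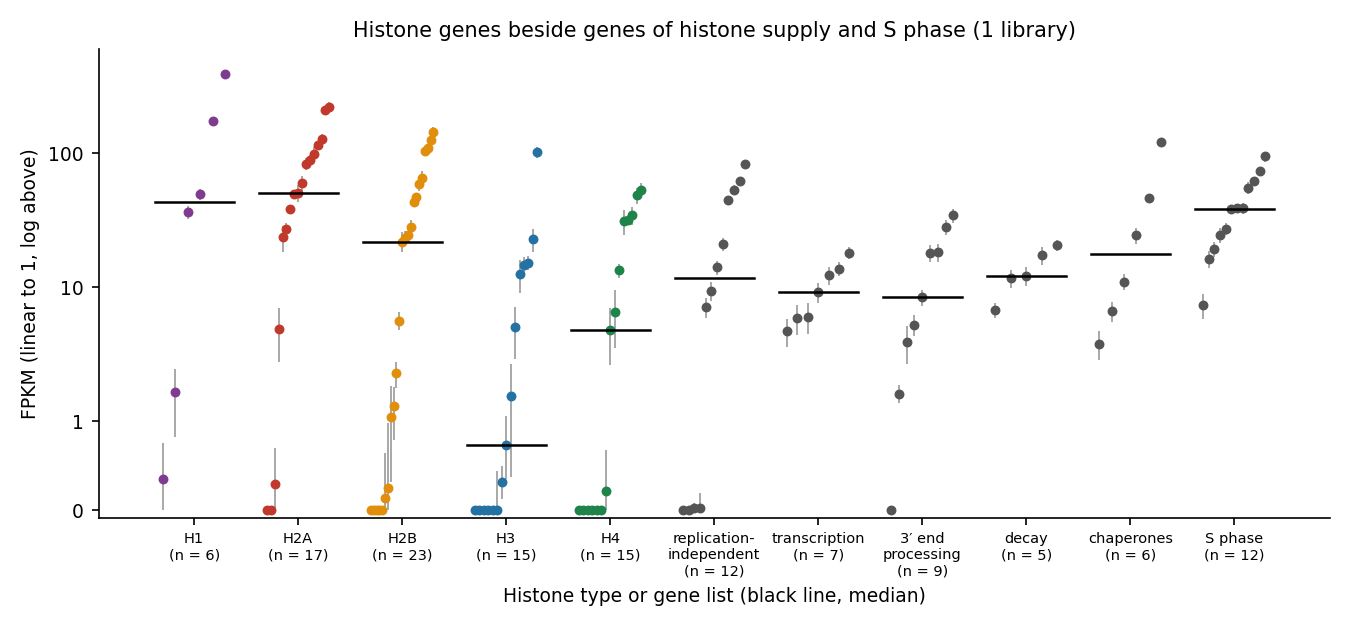
FPKM of the histone members by type beside lists of replication-independent histone genes, genes of histone transcription, 3′ end processing, decay and histone chaperones, and S-phase genes, each point an entry with its bounds as grey bars and the median as a black line. The members spread from 0 to 389.9 FPKM, whereas the S-phase genes all lie between 7.36 and 94.9.

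Many replication-independent histone genes are expressed throughout the cell cycle, and most of their mRNAs carry a polyA tail. Of the 12 in the list 8 were at 1 FPKM or above, with a median of 11.8. H3F3B, which encodes the replacement form of H3, was highest at 82.6 (76.5 to 88.8) FPKM, ahead of H2AFZ at 61.7 (56.9 to 66.6) and H2AFV at 53.4 (48.6 to 58.1). H2AFX, whose protein is phosphorylated at DNA breaks and which shares the stem-loop, had 14.1 (12.5 to 15.7) FPKM. CENPA, the H3 of the centromere, had 9.45 (7.96 to 10.9) FPKM. H2AFJ and H3F3C were listed at 0. The summed FPKM of the members exceeded that of the replication-independent genes 91.7 times for H1 (653 against 7.12), 6.92 times for H2A (1202 against 174) and 1.54 times for H3 (175 against 113). For H3 the bounds of the sums, 149.5 to 200.2 against 103 to 123, do not overlap. These bounds leave out reads lost to the mapping quality minimum, and distinct pieces were not counted for the replication-independent genes.

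The genes that make and process histone mRNA were all measured except RNU7-1, the U7 snRNA gene, which was listed at 0. This 0 does not show that the snRNA is absent from the cells. Among the 7 transcription genes the values ran from 4.69 FPKM for CCNE2 to 18.02 for CASP8AP2, and NPAT stood at 12.3 (10.4 to 14.1) FPKM. SLBP, the protein that binds the stem-loop, was the highest of the 9 processing genes at 34.5 (30.5 to 38.6) FPKM, and LSM11 of the U7 snRNP was the lowest above 0 at 1.61 (1.36 to 1.86). LSM10, its partner, had 3.9 (2.67 to 5.14) and ZNF473 5.26 (4.36 to 6.16) FPKM. The nuclease subunit CPSF3 stood at 28.2 (24.6 to 31.7) FPKM. In the decay list, ERI1, the exonuclease that trims the stem-loop, had 11.7 (9.96 to 13.4) and ZCCHC11, a uridylyl transferase, 20.6 (18.6 to 22.7) FPKM. NASP, which chaperones H1 and H3, was the highest of the 6 chaperone genes at 121 (115 to 127) FPKM, and ASF1B the lowest at 3.78 (2.86 to 4.71). The 12 S-phase genes were all at 1 FPKM or above with a median of 38.5, from 7.36 FPKM for CDT1 to 94.9 for MCM4. This median lay within the range of the H1, H2A and H2B members and above all but 3 of the 30 H3 and H4 members. Since the library is bulk RNA, a smaller share of cells in S phase and less histone mRNA per such cell cannot be told apart.

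The count tables list fewer EZH2 RIP-seq fragments than the study describes, and fragments outside these tables were not analysed here. Among the 900 fragments in the tables, 2 fell within the span of a member, both in the HIST1 cluster, and none overlapped an exon of a histone gene in GENCODE 44. The first, at chr6:26115173-26116222, lies in the long span of HIST1H2BC, 7250 bases past its stem-loop. It had 0 cytoplasmic, 55 nuclear, 22 nuclear polyA+ and 31 nuclear polyA− reads. The second, at chr6:26131367-26131798, lies in the span of HIST1H2AC, 6683 bases past its stem-loop. It had 1 cytoplasmic, 27 nuclear, 18 polyA+ and 18 polyA− reads. Both fragments therefore lie outside the short histone mRNA, in a stretch of the span without an exon of GENCODE 44. HIST1H2BC stood at 109 (100.4 to 118) and HIST1H2AC at 49.5 (46.3 to 52.6) FPKM in the input.

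Counts are raw reads without scaling, and the tables give no strand for the fragments. They summed over the 900 fragments to 7929 reads in the cytoplasmic, 105661 in the nuclear, 57985 in the polyA+ and 106051 in the polyA− library, which are not library totals. Nuclear reads exceeded cytoplasmic reads at both fragments, as they did at 96.2% of the 900. At the fragment in HIST1H2BC the lower 95% Clopper-Pearson limit of nuclear over cytoplasmic reads was 14.4, with no upper limit because of the 0, and at that in HIST1H2AC the ratio was 27 (interval 4.45 to 1110). The intervals cover counting error only. PolyA− reads exceeded polyA+ reads at 83.4% of the 900 fragments. Their ratio had a median of 3.54 over the 840 fragments with polyA+ reads, and the summed reads of all 900 gave 1.83. It was 1.41 (0.79 to 2.55) in HIST1H2BC and 1 (0.491 to 2.04) in HIST1H2AC, so both intervals lay below that median, while they included the ratio of the summed reads. Since the libraries were not scaled, a ratio of 1 does not mark equal amounts.

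A further 4 fragments lay 2837 to 35769 bases past HIST1H2BO, the last member of HIST1, and these were picked out after their counts were seen. They had 370, 185, 83 and 141 nuclear reads in the order of their distance, and 8, 1, 1 and 1 cytoplasmic reads. PolyA− over polyA+ reads came to 1.64 (1.38 to 1.96), 1.57 (1.26 to 1.95), 3.14 (1.92 to 5.32) and 4.47 (3.07 to 6.69) in the same order. The intervals of the first 2 lay below the median fragment and included the ratio of the summed reads. Those of the last 2 included the median and lay above the summed ratio. The nearest, at chr6:27896680-27902008, begins 2795 bases past the stem-loop of HIST1H2BO and overlaps the pseudogene RNU7-26P, and the other 3 overlap no exon. Whether these RNAs start at a histone gene cannot be read from counts per fragment. None of the 900 listed fragments lay within 50 kb of a HIST2, HIST3 or HIST4 member.

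**Figure D5:**
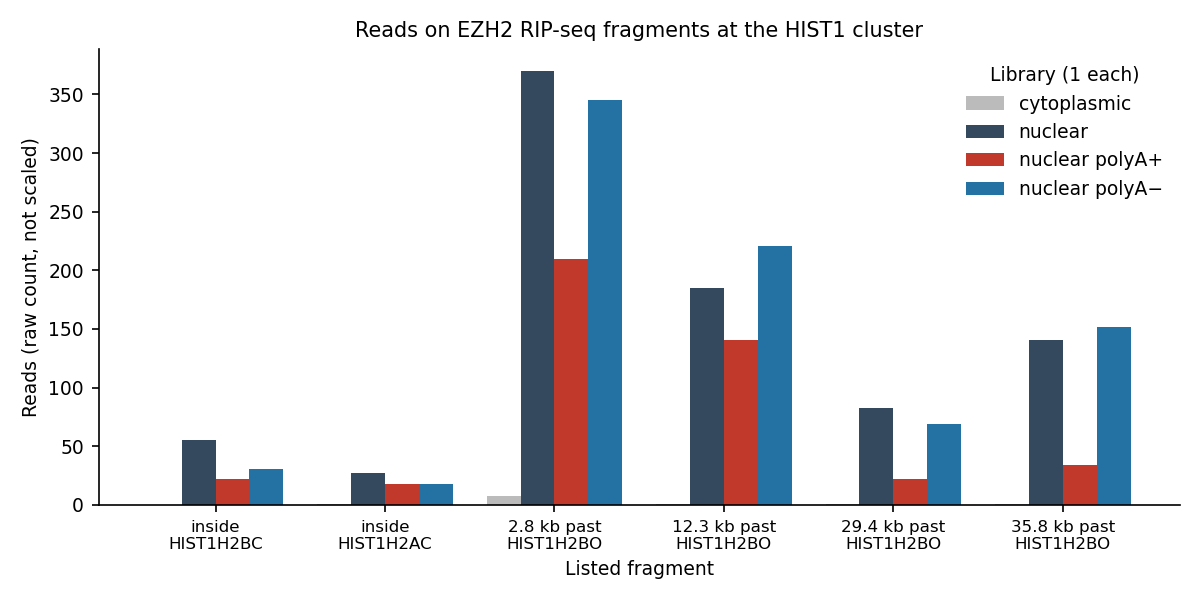
Raw reads in the cytoplasmic, nuclear, nuclear polyA+ and nuclear polyA− libraries (1 each) on the 6 listed fragments at the HIST1 cluster, from the fragments inside HIST1H2BC and HIST1H2AC to those 2837 to 35769 bases past HIST1H2BO. Nuclear bars reach 27 to 370 reads and cytoplasmic bars 0 to 8, and polyA− stands above polyA+ at 5 of the 6.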

How the data were processed

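The input RNA of the RIP-seq and 4 RNA fractions, all of wild-type K562, were analysed as 1 library each. The authors trimmed reads with TrimGalore, mapped them with STAR to GRCh38 with GENCODE 26, removed PCR duplicates with SAMtools and alignments with mapping quality under 20. They deposited a gene table of FPKM and its confidence bounds from cuffdiff, and the raw read count of each listed EZH2 RIP-seq fragment, made with featureCounts. Removal of duplicates can lower the values of short, abundant mRNAs such as these, by an amount that was not tested. The FPKM table gives no depth, so its precision is that of its bounds.

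Members, lists and tests were chosen with earlier results of these data known. Genes named are the 5 highest of each type, all HIST2, HIST3 and HIST4 members without pseudogenes, the testis genes, the 3 highest pseudogenes and members with a fragment; other members were named at will. Gene models came from GENCODE 44, with 84 of 91 entries matched by gene ID and 7 through RefSeq synonyms, and promoters from RefSeq on GRCh38. With 1 library per group no test was run. Ratios of counts carry exact 95% Clopper-Pearson intervals. Pieces were mapped with minimap2 2.31. Python 3.11.15, pandas 2.3.3, scipy 1.17.1 and pysam 0.24.0 were used, and the functions were tested on simulated data. Alternatives covered thresholds, pseudogenes, members at 0, distinct members, windows, piece lengths and the pseudocount. Samples other than these 5 were not analysed here.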

Additional observations from a re-analysis of the deposited data

How the results depend on the processing

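Among 51 alternatives for 18 results, 30 kept the value within 1.5 times (counts), within the bounds (medians and shares) or at the same rho, and 21 moved it. Counts of members at 1 FPKM or above, with a lower bound above 0, with a stem-loop, with distinct sequence and in pairs stayed within that limit under every alternative tried for them. The medians moved. Leaving out members at 0 gave 60.02 FPKM for H2A, 26.4 for H2B, 8.76 for H3, 31.3 for H4, 37.5 for HIST1, 11.9 for HIST2 and 14.7 for HIST3. Counting pseudogenes gave 20.2 for H1, 27.03 for H2A, 3.96 for H2B and 0.265 for H3. Keeping only members that are at least 80% distinct gave 60.02 for H2A, 1.13 for H3, 13.4 for H4 and 26.4 for HIST2. Leaving out annotated pseudogenes too, a choice made after seeing the data, gave 26.4 for H2B and 2.28 for HIST3. The log2 difference between members and other genes in the clusters was 6.42 with a pseudocount of 0.1, and 3.53 in blocks of members at most 100 kb apart, the latter also chosen after seeing the data. In these cases the alternative changes which entries are counted, or how far values near 0 are spread. Spearman's rho over the pairs fell from 0.739 to 0.482 with both genes at 1 FPKM or above and to 0.527 with both at least 80% distinct, choices made after seeing the data. No paired analysis was possible because every group used here is 1 library. HIST4, a single gene at 0, gave no value without members at 0.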
